A study of Mus musculus with 9 samples.

Results

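Cells that shrink in hyperosmotic medium regain volume by taking up sodium, potassium and chloride, and 7 genes of this machinery were examined here by gene symbol in a table of 35275 genes. They are the cation-chloride cotransporter genes Slc12a2, Slc12a4 and Slc12a7, the kinase genes Wnk1, Stk39 and Oxsr1, and Atp1b1, which encodes a beta subunit of the Na/K-ATPase. All 7 passed the filter on low counts that left 13082 genes to test. The RNA came from mouse embryonic fibroblasts (MEFs) of the C57Bl/6 strain, in 9 libraries. One group of 3 was in iso-osmolar medium (300 mOsm), called control medium below, another had sucrose added (200 mM) to reach 500 mOsm, and the last had more sucrose (300 mM) to reach 600 mOsm. Treatment lasted 3 h, and all groups shared the same serum-containing growth medium apart from the sucrose, with no genetic change. The study set the 2 osmolarities side by side as a lower and a higher intensity of the same stress. The labels do not say whether replicates came from separate cultures, so the p-values measure the spread between these libraries, which may be technical.

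As background, the Slc12a2 product NKCC1 carries sodium and potassium inward together with chloride, and water follows. The products of Slc12a4 (KCC1) and Slc12a7 (KCC4) carry potassium and chloride outward, and they favour volume loss. WNK1, a kinase inhibited by chloride and sensitive to cell volume, phosphorylates the related kinases SPAK (Stk39) and OSR1 (Oxsr1), and these in turn switch NKCC1 on and the outward carriers off. The Na/K-ATPase keeps the sodium and potassium gradients on which all of these carriers run. The system is switched mainly by phosphorylation, which RNA counts do not measure, so the values here are those of the transcripts alone.

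All 7 genes are protein-coding and lie on 7 chromosomes. In mm10, Slc12a2 lies on the plus strand of chromosome 18 from 57878678 to 57946821 and Slc12a7 on the plus strand of chromosome 13 from 73763697 to 73816743. The other genes lie on the minus strand. These are Slc12a4 on chromosome 8 from 105943590 to 105966115, Wnk1 on chromosome 6 from 119923969 to 120038672, Stk39 on chromosome 2 from 68210445 to 68472268, Oxsr1 on chromosome 9 from 119238432 to 119322427 and Atp1b1 on chromosome 1 from 164437267 to 164458355.

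RefSeq promoter sequences (GRCm38.p6) were matched by symbol for 6 of the 7 genes, and none was matched for Slc12a2. Shown are the 250 bases before the start used by these promoter entries, from which the distances below are counted. They are those of the 3 kinase genes, whose transcripts were all lower at 600 than at 500 mOsm, and of Atp1b1, whose transcript moved most. The Stk39 window lies wholly inside the range listed above for that gene, and the Wnk1 window partly. The starts used for Stk39 and Wnk1 thus differ from those of the listed ranges. Capitals mark matches on either strand to 6 motifs, whose letters are spelled out after the sequences. Each sequence reads 5′ to 3′ on the gene's own strand, which is the minus strand in all 4.

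Wnk1, chr6:120038656-120038905: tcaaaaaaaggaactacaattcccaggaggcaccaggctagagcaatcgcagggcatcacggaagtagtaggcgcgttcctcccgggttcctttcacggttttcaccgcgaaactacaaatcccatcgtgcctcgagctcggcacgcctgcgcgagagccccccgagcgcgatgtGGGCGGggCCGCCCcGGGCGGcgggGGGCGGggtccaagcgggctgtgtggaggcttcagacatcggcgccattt
Stk39, chr2:68471982-68472231: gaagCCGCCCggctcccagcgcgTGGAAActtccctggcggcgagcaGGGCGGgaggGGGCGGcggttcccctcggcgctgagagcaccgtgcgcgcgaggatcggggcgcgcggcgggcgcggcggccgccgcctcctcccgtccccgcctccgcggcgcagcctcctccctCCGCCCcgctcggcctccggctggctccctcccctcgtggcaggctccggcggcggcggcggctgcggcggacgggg
Oxsr1, chr9:119322428-119322677: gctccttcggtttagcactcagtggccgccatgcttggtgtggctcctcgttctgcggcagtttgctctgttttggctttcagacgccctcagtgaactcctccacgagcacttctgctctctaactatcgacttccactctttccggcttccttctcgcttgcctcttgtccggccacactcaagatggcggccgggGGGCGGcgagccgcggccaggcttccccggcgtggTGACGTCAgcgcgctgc
Atp1b1, chr1:164458356-164458605: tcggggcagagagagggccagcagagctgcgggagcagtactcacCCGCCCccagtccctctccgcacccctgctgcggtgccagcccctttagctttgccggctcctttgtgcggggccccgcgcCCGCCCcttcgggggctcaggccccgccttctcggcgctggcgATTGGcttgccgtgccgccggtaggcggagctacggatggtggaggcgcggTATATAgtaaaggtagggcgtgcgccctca

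The GC box, with the letters GGGCGG, was found before all 6 genes with an entry, where 32.7% of 32851 promoters of this length held it. The promoter of Atp1b1 was the only one of the 6 with a TATA-like run, searched as TATATA and held by 5.25% of promoters. It was also the only one with the CCAAT box (33.8% of promoters), which reads in reverse here. The cAMP response element TGACGTCA stood before Oxsr1 alone, 17 bases from the start, and 1.55% of promoters held it. The core of the tonicity element that TonEBP binds was searched as TGGAAA, held by 18.6% of promoters, and was matched before Stk39 alone, 227 bases from the start. An E-box, spelled CACGTG and held by 6.02% of promoters, was found in 1 of the 2 listed windows of Slc12a7. None of these 6 motifs overlaps with another in the 4 sequences shown. The motifs were chosen after the sequences were seen, and a match is a run of letters, not a shown binding site. The GC content of the 4 windows ran from 62.4% before Oxsr1 and 64.0% before Wnk1 to 70.4% before Atp1b1 and 82.4% before Stk39.

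Between 21716042 and 26740832 reads per library were counted on genes, and the 10 most counted genes took 6.20% to 7.81% of them, with the 3 highest shares in the 600 mOsm libraries. Each of 8 fibroblast markers (Col1a1, Col1a2, Col3a1, Vim, Thy1, Pdgfra, Pdgfrb and Fn1) had a mean FPKM of at least 1 in every group. FPKM is the authors' unit, reads scaled to the length of the gene and to the library's total. The summed FPKM of 4 epithelial markers was 0.0317 to 0.237 in control medium, 1.08 to 1.47 at 500 mOsm and 0.117 to 0.275 at 600 mOsm. That of 3 endothelial markers was 0.202 to 0.246, 3.26 to 3.72 and 0.550 to 0.901. At 500 mOsm most of the endothelial sum was Pecam1, and the largest part of the epithelial sum was Cdh1, at a mean of 0.784 FPKM. Epcam and Kdr were at 0 in every iso-osmolar library. The sum of 3 leukocyte markers, mostly Cd68, was 0.694 to 1.26, 1.29 to 1.48 and 1.11 to 1.54 in the same order of groups. The part of these markers in the results below was not tested. In bulk RNA, fewer cells that express a gene and less RNA per cell cannot be told apart.

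Genes were compared between treatments on their counts with edgeR's quasi-likelihood test, and a gene was called where the p-value, adjusted over all 13082 genes, was under 0.05. At 500 mOsm, 3 of the 7 genes differed from control medium, where 28% of all genes tested did. Atp1b1 and Oxsr1 were higher, as were 13.2% of all genes, and Slc12a4 was lower, as were 14.8%. At 600 mOsm, 4 of the 7 differed from control medium, against a background of 35.1%. All of these were lower (Slc12a2, Wnk1, Stk39 and Oxsr1), where 20% of all genes were lower and 15.1% higher. Between 600 and 500 mOsm, 6 of the 7 differed, against 29.1% of all genes. Slc12a2, Wnk1, Stk39, Oxsr1 and Atp1b1 were lower at 600 mOsm (17.2% of all genes) and Slc12a4 was higher (11.9%). With so few genes, these counts are read only as a description. The 3 comparisons share libraries and are not independent of each other.

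The median log2 fold change of the 7 genes was -0.07 at 500 mOsm and -0.26 at 600 mOsm against control medium, and -0.45 between 600 and 500 mOsm. The medians over all genes tested were 0.01, 0.01 and 0.01. With the library of 600 mOsm replicate 3 left out, which had the highest share of counts on the 10 most counted genes, 3 genes differed between 600 mOsm and control medium and 5 between the osmolarities. These drops were not particular to that library. Without iso-osmolar replicate 1, 3 genes also differed between 600 mOsm and control medium. Between the osmolarities, 5 also differed in other fits with a library left out. With a correction for the GC content and length of each gene in each library, 2 genes, Slc12a2 and Stk39, still differed between 600 mOsm and control medium. Over all genes, 4911 were called in that fit. Of the called changes, those of Slc12a2 and Stk39 at 600 mOsm in both comparisons, of Atp1b1 and Slc12a4 between 500 mOsm and control medium, and of Atp1b1 and Oxsr1 between the osmolarities passed 0.05 under each of 20 alternative settings.

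**Figure D1:**
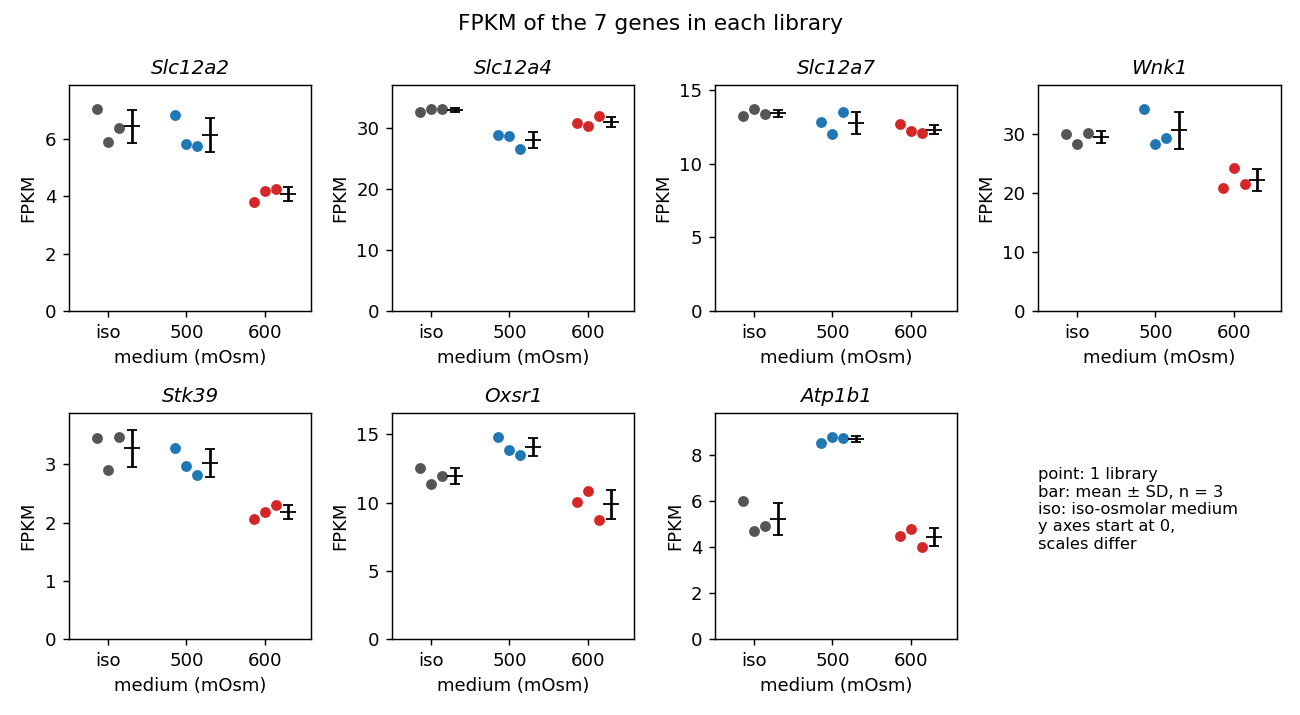
FPKM (y axis, from 0) of the 7 genes in each library, by medium (x axis), with the mean and SD of the 3 libraries beside the points. The 600 mOsm libraries lie below all others for Slc12a2, Wnk1, Stk39 and Oxsr1, and the 500 mOsm libraries lie above all others for Oxsr1 and Atp1b1.

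Among the cotransporters, the inward carrier was the one that fell at the higher osmolarity. The FPKM of Slc12a2 was 7.05, 5.90 and 6.41 in the iso-osmolar libraries, 6.84, 5.82 and 5.77 at 500 mOsm, and 3.81, 4.19 and 4.25 at 600 mOsm. Every 600 mOsm library lay below the other 6, and the iso-osmolar and 500 mOsm libraries overlapped. Slc12a2 fell by 35.7% from control medium to 600 mOsm, a log2 fold change of -0.64 (SE 0.0875, adjusted p = 0.00013), on 599 to 737 reads per library at 600 mOsm. Between 500 and 600 mOsm it fell by 32.7%, a log2 fold change of -0.57 (SE 0.0873, adjusted p = 0.000335). After GC and length correction the values were smaller, -0.41 (adjusted p = 0.000648) and -0.39 (adjusted p = 0.00107). At 500 mOsm its log2 fold change against control medium was -0.07, with a 95% interval from -0.25 to 0.12 (adjusted p = 0.626). The data thus leave room for a change at 500 mOsm of the size of that interval, and the fall at 600 mOsm lay outside it.

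Slc12a4, the more abundant of the outward carriers, moved the other way between the osmolarities. Its FPKM was 32.5, 33.0 and 33.0 in control medium, 28.8, 28.7 and 26.5 at 500 mOsm, and 30.7, 30.2 and 31.9 at 600 mOsm. The 500 mOsm libraries were the lowest, the iso-osmolar libraries the highest, and no group overlapped with another on this scale. On the counts, Slc12a4 fell by 14.6% at 500 mOsm (log2 fold change -0.23, SE 0.0542, adjusted p = 0.00675). It was 11.8% higher at 600 than at 500 mOsm (log2 fold change 0.16, SE 0.0542, adjusted p = 0.0412). That second call was lost under 9 of 20 alternatives, with adjusted p between 0.0524 and 0.144, including a fit with a replicate block (adjusted p = 0.0925) and the fits without iso-osmolar replicate 2 or 3, 500 mOsm replicate 1 or 3, or 600 mOsm replicate 1 or 3. Between 600 mOsm and control medium its log2 fold change was -0.07 (95% interval -0.18 to 0.05, adjusted p = 0.375).

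Slc12a7, the other outward carrier, passed the test in none of the 3 comparisons. Its FPKM was 13.3, 13.7 and 13.4 in control medium, 12.8, 12 and 13.5 at 500 mOsm, and 12.7, 12.2 and 12.1 at 600 mOsm. The 500 mOsm libraries overlapped with both other groups. Its log2 fold changes were -0.07 (95% interval -0.19 to 0.05) at 500 mOsm and -0.11 (-0.22 to 0.01) at 600 mOsm against control medium, and -0.03 (-0.15 to 0.08) between the osmolarities, so its intervals were narrow and lay near 0 (adjusted p = 0.367, 0.148 and 0.683 in edgeR). After GC and length correction the last 2 values turned positive, at 0.02 and 0.07, and were not called either.

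Within a library, the share of Slc12a2 in the summed FPKM of the 3 cotransporters had a mean ± SD over 3 libraries of 12.2% ± 1.08 in control medium, 13.1% ± 0.897 at 500 mOsm and 8.62% ± 0.490 at 600 mOsm. All 3 libraries at 600 mOsm, at 8.07%, 8.98% and 8.83%, lay below the other 6, the lowest of which was at 11.2%. An exact two-sided permutation test gave p = 0.1 for 600 mOsm against either other group, the smallest p that 3 libraries against 3 allow (0.18 after Benjamini-Hochberg adjustment over the 9 shares tested). This comparison therefore could not pass 0.05.

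**Figure D2:**
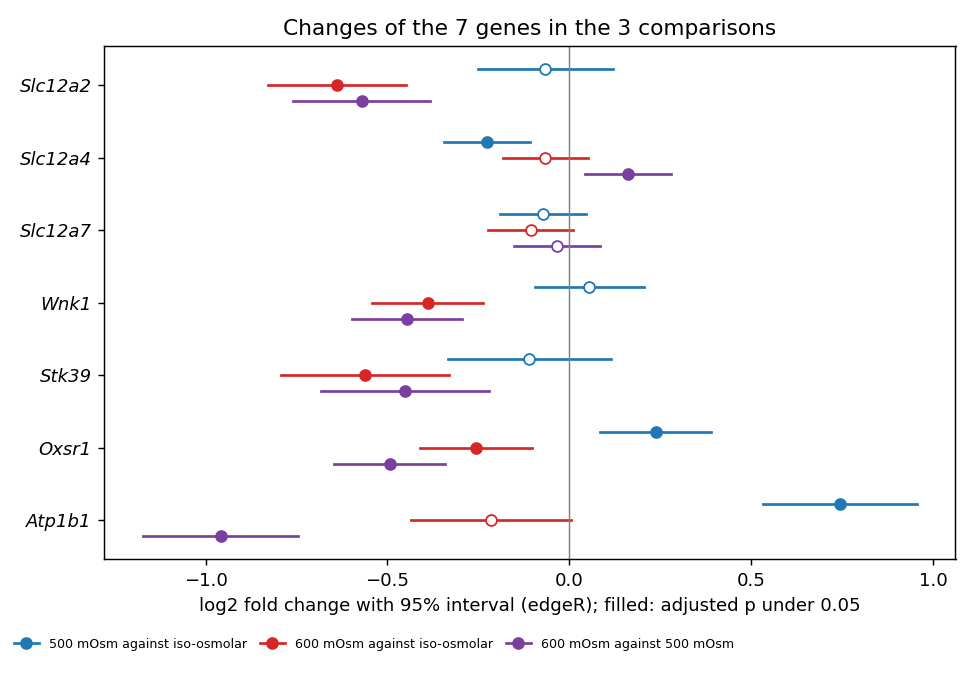
Log2 fold change (x axis) of the 7 genes in the 3 comparisons, as edgeR's estimate with its 95% interval, filled where the adjusted p is under 0.05. Slc12a7 has no filled point, and Atp1b1 has the widest swing, from 0.74 at 500 mOsm against control medium to -0.96 between 600 and 500 mOsm.

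All 3 kinase genes were lower at 600 than at 500 mOsm and lower at 600 mOsm than in control medium. Wnk1, the upstream kinase, had an FPKM of 30.1, 28.4 and 30.3 in control medium, 34.3, 28.3 and 29.5 at 500 mOsm, and 20.9, 24.4 and 21.6 at 600 mOsm. The 600 mOsm libraries were below the other 6, and 500 mOsm replicate 1 was above the rest of its group. Wnk1 fell by 23.7% from control medium to 600 mOsm (log2 fold change -0.39, SE 0.0697, adjusted p = 0.000953) and by 26.5% from 500 to 600 mOsm (log2 fold change -0.45, SE 0.0697, adjusted p = 0.000401). It held 5713 to 9452 reads per library, the most of the 7 genes. At 500 mOsm the log2 fold change against control medium was 0.06 (95% interval -0.10 to 0.21, adjusted p = 0.616), and without 500 mOsm replicate 1 it was -0.03.

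The Wnk1 values at 600 mOsm depended on the correction for GC content and length. Its listed length of 11330 bases was exceeded by 1.06% of the genes tested, whose median length was 3020 bases, and the GC content of its longest transcript was 49.0%, near the median of 50.2%. After the correction the log2 fold change of Wnk1 against control medium was -0.04 (adjusted p = 0.501), and the call was lost. Between the osmolarities it was -0.12 (adjusted p = 0.0385, and 0.0812 with a replicate block as well). Slc12a2, with 6520 bases and 44.2% GC, and Stk39, with 3536 bases and 49.2% GC, kept their calls under the same correction, Stk39 with a log2 fold change of -0.49 against control medium. The cause of the difference was not tested.

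Stk39 encodes SPAK and had the lowest level of the 7 genes in every group. Its FPKM was 3.45, 2.90 and 3.46 in control medium, 3.28, 2.97 and 2.81 at 500 mOsm, and 2.06, 2.17 and 2.30 at 600 mOsm, from 170 to 296 reads per library. As for Slc12a2, the 600 mOsm libraries were below the other 6 and the other groups overlapped. Stk39 fell by 32.3% from control medium to 600 mOsm (log2 fold change -0.56, SE 0.106, adjusted p = 0.00142) and by 26.9% from 500 to 600 mOsm (log2 fold change -0.45, SE 0.106, adjusted p = 0.0066). Its log2 fold change from control medium to 500 mOsm was -0.11 (95% interval -0.33 to 0.11, adjusted p = 0.482).

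Oxsr1, which encodes the close relative OSR1, was the kinase gene with a call at 500 mOsm. Its FPKM was 12.5, 11.4 and 11.9 in control medium, 14.8, 13.9 and 13.5 at 500 mOsm, and 10.1, 10.9 and 8.75 at 600 mOsm. The 500 mOsm libraries were the highest and the 600 mOsm libraries the lowest, with no overlap between groups. Oxsr1 fell by 29.0% from 500 to 600 mOsm (log2 fold change -0.49, SE 0.0704, adjusted p = 0.000199). It was 17.9% higher at 500 mOsm than in control medium (log2 fold change 0.24, SE 0.0699, adjusted p = 0.0226), and fell by 16.3% at 600 mOsm (log2 fold change -0.26, SE 0.0709, adjusted p = 0.0141).

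Both comparisons of Oxsr1 with control medium were near the threshold. The call at 500 mOsm was lost in limma on log2 FPKM (adjusted p = 0.0567 with a pseudocount of 1) and without iso-osmolar replicate 2 or 3 or 500 mOsm replicate 1 or 2, where the adjusted p ran from 0.051 to 0.0846. The call at 600 mOsm was lost after GC and length correction (log2 fold change -0.12, adjusted p = 0.122), without iso-osmolar replicate 1 (adjusted p = 0.0541) and without 600 mOsm replicate 3 (adjusted p = 0.0598).

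The share of Stk39 in the summed FPKM of the 2 SPAK and OSR1 genes had a mean ± SD (n = 3) of 21.4% ± 1.10 in control medium, 17.7% ± 0.490 at 500 mOsm and 18.2% ± 2.29 at 600 mOsm. Every iso-osmolar library, from 20.3% to 22.4%, lay above the 500 mOsm libraries, while 600 mOsm replicate 3, at 20.8%, fell within the iso-osmolar range. Exact two-sided permutation tests gave p = 0.1 for 500 mOsm and p = 0.2 for 600 mOsm against control medium (adjusted 0.18 and 0.257), and p = 1 between the osmolarities.

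Atp1b1 showed the largest change of the 7 genes in 2 comparisons, a rise at 500 mOsm against control medium and a fall between 500 and 600 mOsm. Its FPKM was 6.01, 4.70 and 4.95 in control medium, 8.56, 8.79 and 8.77 at 500 mOsm, and 4.50, 4.80 and 4.01 at 600 mOsm. The 500 mOsm libraries had an SD of 0.127 FPKM and lay above the other 6, and the remaining groups overlapped. Atp1b1 rose 1.67-fold at 500 mOsm (log2 fold change 0.74, SE 0.0973, adjusted p = 7.9e-05) and was 0.515-fold at 600 mOsm relative to 500 mOsm (log2 fold change -0.96, SE 0.0983, adjusted p = 1.3e-05). Over the 20 alternatives these log2 fold changes ran from 0.65 to 0.85 and from -1 to -0.84. Against control medium, the value at 600 mOsm was -0.21 (95% interval -0.43 to 0.01, adjusted p = 0.121) and was not called under any of the 20 alternatives.

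In the GENCODE annotation 575 bases of Atp1b1 exons, 18.7% of the gene's exonic sequence, are shared with Nme7 on the opposite strand. Whether counting used the strand is not given in the sources used here. In the authors' table the listed range of Nme7 ends before Atp1b1 begins. The log2 fold changes of Nme7 were 0.21, 0.25 and 0.04 in the 3 comparisons (500 mOsm and 600 mOsm against control medium, then 600 against 500 mOsm), with adjusted p = 0.159, 0.0736 and 0.781. Slc12a4 shares 361 exonic bases with the antisense gene Gm16156, to which 0 to 2 reads per library were assigned.

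Atp1b3, the beta subunit gene of the list below, was the more abundant one in these cells. Atp1b1 made up 8.94% ± 0.745 (mean ± SD, n = 3) of the summed FPKM of Atp1b1 and Atp1b3 in control medium, 13.6% ± 0.806 at 500 mOsm and 10.1% ± 0.462 at 600 mOsm. The 500 mOsm libraries, at 13%, 14.6% and 13.3%, were above the other 6, and the exact permutation test against either group gave p = 0.1 (adjusted 0.18). At 600 mOsm the share was 10.6%, 9.97% and 9.67%, and it overlapped with the iso-osmolar libraries (p = 0.2 in the same exact test, adjusted 0.257).

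**Figure D3:**
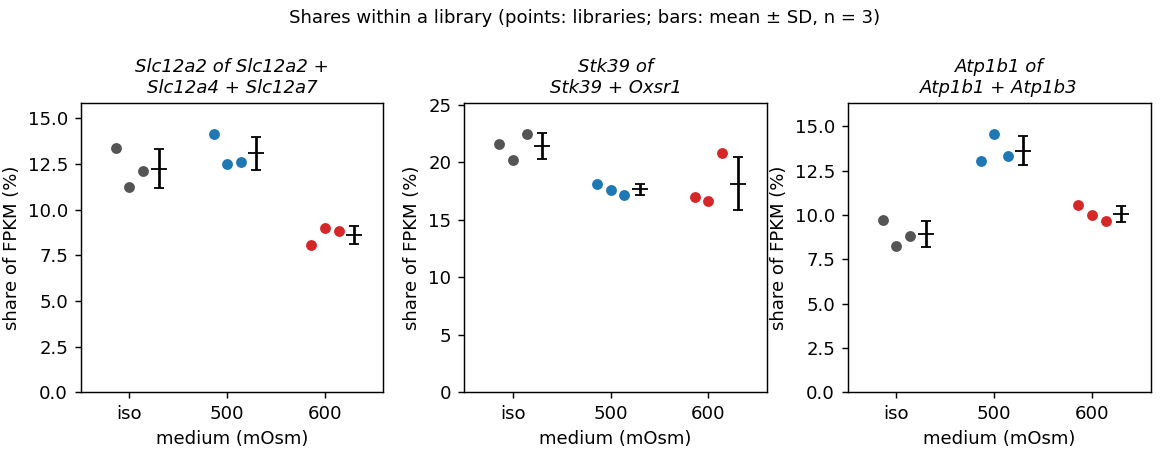
Share of FPKM (y axis, in percent, from 0) of Slc12a2 among the 3 cotransporters, of Stk39 among Stk39 and Oxsr1, and of Atp1b1 among Atp1b1 and Atp1b3, by medium (x axis), with each library as a point and the mean ± SD beside it. The Slc12a2 share is lowest at 600 mOsm (8.62%), the Atp1b1 share is highest at 500 mOsm (13.6%), and the Stk39 share is highest in control medium (21.4%).

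On the FPKM scale, which divides by gene length, the order of levels changed between media only by swaps of neighbours. In control medium it was Slc12a4 (32.8 FPKM), Wnk1 (29.6), Slc12a7 (13.5), Oxsr1 (12), Slc12a2 (6.45), Atp1b1 (5.22) and Stk39 (3.27), and of these neighbours only Slc12a2 and Atp1b1 overlapped between libraries. At 500 mOsm, Wnk1 (30.7 FPKM) and Slc12a4 (28.0) overlapped, and Oxsr1 (14.1) stood above Slc12a7 (12.8) and Atp1b1 (8.70) above Slc12a2 (6.14). At 600 mOsm, Slc12a4 (30.9 FPKM) was again above Wnk1 (22.3), while Atp1b1 (4.44) and Slc12a2 (4.08) overlapped.

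The 7 genes did not follow 1 pattern over the 9 libraries. As a description of log2 CPM (counts scaled to the normalized library size) in libraries that share 3 treatments, Pearson's r was 0.98 between Slc12a2 and Stk39, 0.95 between Slc12a2 and Wnk1, and 0.91 between Oxsr1 and Atp1b1. Slc12a4 and Atp1b1 had the most negative r, -0.81. Slc12a7 reached an r of at most 0.46 with any of the other 6.

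Of all genes tested, the one whose pattern was most like Slc12a2 was Stk39, followed by Upf3a, of nonsense-mediated mRNA decay, and Hmbox1 (r = 0.98 for each, 9 libraries). Stk39 was nearest to Slc12a2, then to Atxn7 and Zrsr2 (both 0.96). Wnk1 was nearest to Man2a1 (r = 0.996), Ahnak (0.987) and Zmynd11 (0.978). The pattern of Slc12a4 was nearest to those of Taf1c (r = 0.997), a factor of RNA polymerase I, Adat3 (0.988) and Nob1 (0.984). Genes nearest to Oxsr1 were Gm15800, R3hdm2 and the RNA helicase gene Ddx5 (each 0.98), and those nearest to Atp1b1 were Nedd9, Git2 and Gm17501 (each 0.99). For Slc12a7 they were Rapgef3 (0.96), Gm12359 (0.92) and Gm13340 (0.90). These are the highest values among all genes tested, so they are high by selection.

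Other genes of the pathway were taken from a list of 46, of which 30 could be tested. At 500 mOsm against control medium 8 of the 30 were higher and 0 lower, or 26.7%, near the 28% of all genes tested, and 3 of the 8 (Slc9a2, Slc9a4 and Slc4a1) reached the test only through the 500 mOsm libraries. Without a filter on counts 12 list genes were called, and 4808 over all genes (3659 with the filter). At 600 mOsm against control medium 5 were higher and 7 lower (40.0%, against 35.1%). Of the 5 higher, Slc4a1 reached the test only through the 500 mOsm libraries. The number of list genes called at 600 mOsm against control medium fell to 6 without iso-osmolar replicate 1. It fell to 7 without iso-osmolar replicate 3 or without 600 mOsm replicate 3. The number called over all genes also fell in these fits, from 4594 to 3633, 3729 and 3590. Between 600 and 500 mOsm 0 were higher and 11 lower (36.7%, against 29.1%). Of these 11, Slc9a2, Slc9a4 and Slc4a1 reached the test only through the 500 mOsm libraries, so their falls follow from that selection. The list's median log2 fold changes were 0.13, -0.02 and -0.18, and setting the genes with a group at 0 to their bound, or leaving out those at or under a floor of 3 reads in both groups, left them at 0.13, -0.02 and -0.18.

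The WNK kinases and their regulators held the list's largest group of falls. Of 8 tested, 0 differed at 500 mOsm from control medium, and the same number, 5, were lower at 600 mOsm in either comparison, where 20% of all genes tested were lower than in control medium and 17.2% lower than at 500 mOsm. These 5 were Klhl2, Sgk1, Cab39, Nedd4l and Cul3. Klhl2, an adaptor that brings WNK kinases to the Cul3 ubiquitin ligase, went from 10.6 to 11.8 FPKM in control medium to 6.31 to 6.97 at 600 mOsm (log2 fold change -0.75, SE 0.0671, adjusted p = 3.59e-06). Sgk1, a salt- and steroid-responsive kinase, went from 93.6 to 105 FPKM to 54.7 to 62.9 (log2 fold change -0.71, SE 0.0594, adjusted p = 2.02e-06). In both genes the 600 mOsm libraries lay below all iso-osmolar ones.

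Cab39, which encodes the scaffold MO25 that activates SPAK and OSR1, had a log2 fold change of -0.57 at 600 mOsm against control medium (adjusted p = 0.000403) and -0.40 against 500 mOsm (adjusted p = 0.00577). The ubiquitin ligase gene Nedd4l had -0.19 (adjusted p = 0.02) and -0.23 (adjusted p = 0.00737), and Cul3 -0.34 (adjusted p = 0.0375) and -0.39 (adjusted p = 0.0236). In the main fit, the falls at 600 mOsm therefore included genes whose products lower WNK abundance (Klhl2, Cul3). They also included a gene whose product raises SPAK and OSR1 activity (Cab39). Whether each of these calls held under the alternative settings was not examined. Only the number of list genes called was followed there. Wnk3, Wnk4 and Cab39l were not called in any comparison.

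Of the other subunits of the Na/K-ATPase and their FXYD regulators, 5 of 14 could be tested. Atp1b3 was at 51.3 to 55.7 FPKM in control medium, 51.6 to 57.1 at 500 mOsm and 37.5 to 43.3 at 600 mOsm. It fell at 600 mOsm, with log2 fold changes of -0.40 against control medium (adjusted p = 0.000253) and -0.46 against 500 mOsm (adjusted p = 8.67e-05), and its value at 500 mOsm was 0.06 (adjusted p = 0.492). Both expressed beta subunit genes were thus lower at 600 than at 500 mOsm.

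Fxyd4, a regulator of the pump, had 11 to 18 reads per library in control medium, 47 to 48 at 500 mOsm and 3 to 9 at 600 mOsm. Its log2 fold changes were 1.67 at 500 mOsm and -1.19 at 600 mOsm against control medium, and -2.87 between the osmolarities (adjusted p = 0.000493, 0.0327 and 2.74e-05), at a depth of at most 48 reads. Fxyd5, at 14.7 to 17.8 FPKM, was not called.

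Among further cotransporter genes, Slc12a9 rose from 6.50 to 7.40 FPKM in control medium to 7.93 to 9.19 at 500 mOsm (log2 fold change 0.33, adjusted p = 0.0154) and 9.45 to 10.9 at 600 mOsm (0.56, adjusted p = 0.000497). Slc12a5 and Slc12a8 were not called.

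Of the 10 Na/H exchanger and partner genes tested, 3 were higher at 500 mOsm and 1 at 600 mOsm than in control medium, beside 13.2% and 15.1% of all genes tested. Of the 3 higher at 500 mOsm, 2 (Slc9a2 and Slc9a4) are genes that passed the filter only through the 500 mOsm libraries. Slc9a3r1, a scaffold for membrane transporters, rose at 500 mOsm (0.25, adjusted p = 0.00819), and its relative Slc9a3r2 at 600 mOsm (0.40, adjusted p = 0.0243). The Cl/HCO3 exchanger gene Slc4a2 rose at 600 mOsm (0.21, adjusted p = 0.0455), and Slc4a3 was not called.

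A small set of exchanger genes had few or no reads in control medium and their highest counts at 500 mOsm. Slc9a2 had 1, 0 and 1 reads in control medium, 49, 18 and 36 at 500 mOsm and 0 in each 600 mOsm library. Slc9a4 had 0 reads in each iso-osmolar library, 17, 14 and 22 at 500 mOsm and 0, 1 and 0 at 600 mOsm. The erythroid exchanger gene Slc4a1 had 0 in control medium, 14, 14 and 16 at 500 mOsm and 2, 7 and 5 at 600 mOsm. These 3 genes passed the filter on low counts only through the 500 mOsm libraries. Their calls as higher there and as lower at 600 than at 500 mOsm follow from that selection and support nothing further. Slc4a1 was also called higher at 600 mOsm than in control medium (at least 1.54-fold against the floor given next, adjusted p = 0.0068). Against a floor of 3 reads per library, at 500 mOsm Slc9a4 was at least 5.4-fold higher and Slc4a1 at least 4.48-fold higher than in control medium, and Slc9a2 was at least 10.8-fold lower at 600 than at 500 mOsm. The epithelial and endothelial marker sums given above were also highest at 500 mOsm, and their part in these values was not tested. With at least 10 counts required in every library, these genes left the test, and 5 list genes were called at 500 mOsm against control medium. Over all genes, 2968 were then called, against 3659 in the main fit.

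**Figure D4:**
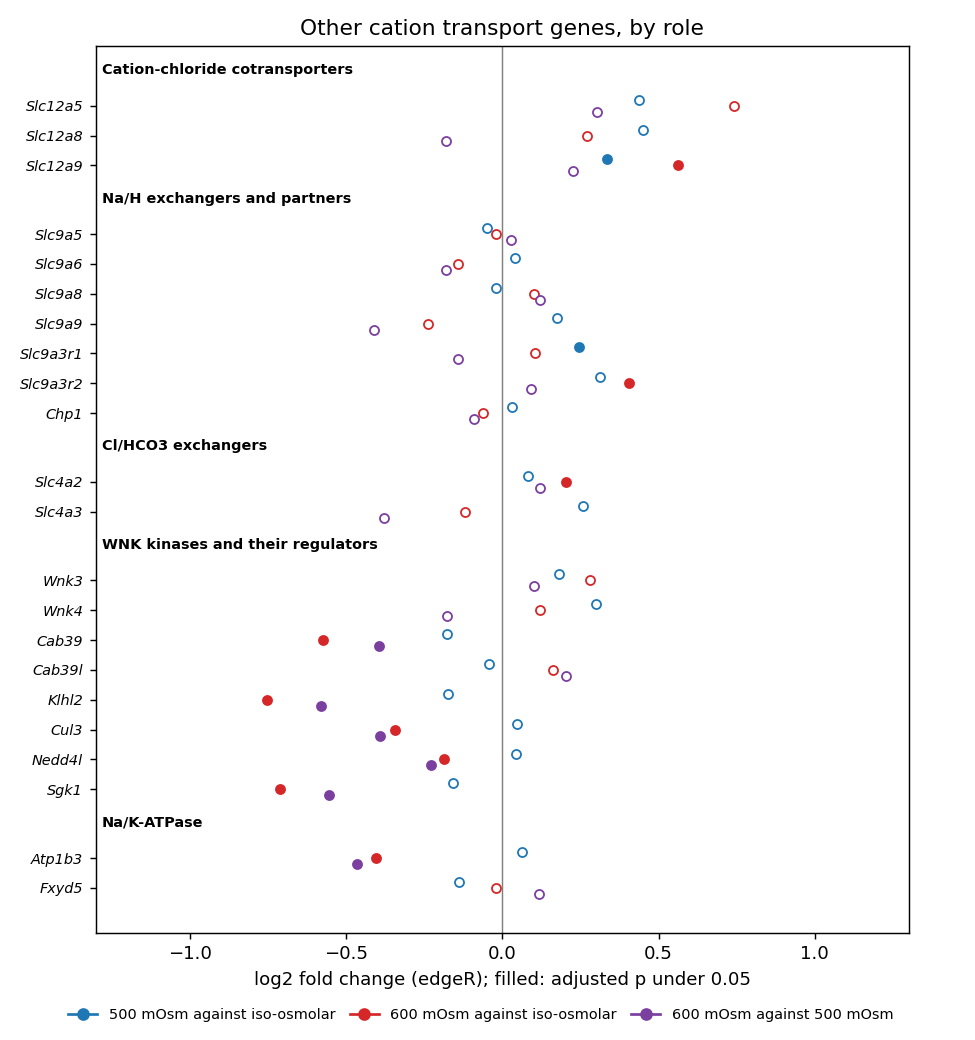
Log2 fold change (x axis, edgeR) of 22 further genes of cation transport, of the 30 tested, in the 3 comparisons, by role, filled where the adjusted p is under 0.05. Klhl2, Sgk1, Cab39, Cul3, Nedd4l and Atp1b3 have filled points to the left for 600 mOsm in both comparisons. The 4 tested genes with an absolute log2 fold change above 1.5 (Slc9a2, Slc9a4, Slc4a1 and Fxyd4) are among the 8 not drawn.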

How the data were processed

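The authors deposited 1 table with the raw read count of 35275 genes in 9 MEF libraries, without normalization, and the FPKM that the authors made from these counts and the gene length. The table also holds the authors' own fold changes and p-values, which were not used. The submitters' processing notes name CASAVA 1.8, STAR and mm10. The counting tool and strand setting are not given in the sources used here. Groups and replicate numbers came from the sample titles.

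Work was done in R 4.3.3. After TMM scaling, the treatments were compared with edgeR 4.0.16 (quasi-likelihood, all 9 libraries in one fit, filterByExpr, Benjamini-Hochberg over 13082 genes, threshold 0.05). FPKM served for levels and for shares, which were compared by exact permutation. The common biological coefficient of variation was 0.0756. A floor of 3 counts was 0.112 to 0.138 CPM, which covers counting error only. Shared sequence was searched with blastn 2.17.0 (at least 100 bases at 95% identity) and found only the overlapping Nme7 and Gm16156. At most 2.94% of the genes tested had equal counts in any pair of libraries, so none was taken as a duplicate.

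Alternatives were RLE factors, library size alone, no filter, at least 10 counts in every library, DESeq2 1.42.0, the 2 treatments alone, a replicate block, GC and length correction with and without it, limma 3.58.1 on log2(FPKM + 1) or log2(FPKM + 0.1), and leaving out each library. The text names all 7 genes, up to 4 tested genes per role of the pathway list with the smallest p (some genes of the list are counted but not reported here by name), any set of 5 or fewer calls, and the 3 genes nearest to each of the 7 by Pearson's r. The 7 genes, the lists and the motifs were chosen with earlier results of these data known. The test was tried on simulated data before use.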

Additional observations from a re-analysis of the deposited data

How the results depend on the processing

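Over the 9 leave-one-out fits, 176 results kept their direction and side of the threshold, 12 lost a call and 1 changed sign; over the other alternatives these numbers were 217, 10 and 4, besides the moves of counts given next. After GC and length correction, 2 of the 7 genes differed between 600 mOsm and control medium (2 with the replicate block as well, 4 without the correction), and the log2 fold change of Slc12a7 turned to 0.0182 (0.0175 with the block) against control medium and to 0.069 (0.0694 with the block) between the osmolarities; the cause was not tested. That of Wnk1 at 500 mOsm against control medium lay between -0.0318 and 0.0916 with a library left out. The pathway list had 5 calls at 500 mOsm against control medium with at least 10 counts in every library, where fewer genes are tested, and 6 to 12 at 600 mOsm with a library left out. Over all genes, 3567 to 4692 were called at 600 mOsm against control medium with a library left out. After GC and length correction that number was 4911, and 4388 with the replicate block as well. Wnk1 lost its call between the osmolarities with the correction and the block together (-0.12, adjusted p = 0.0812 in edgeR).

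Replicate numbers did not pair the libraries: deviations of same-numbered libraries from their group means correlated over genes with a mean r of -0.0847 (9 pairs, -0.241 to 0.156), against 0.0425 for 18 differently numbered pairs. In fits with a replicate block, 3, 4 and 5 of the 7 genes differed (500 mOsm and 600 mOsm against control medium, and 600 against 500 mOsm), against 3, 4 and 6 without it, and of all genes 3111, 3798 and 3089. Over all genes, the SE of the change between the osmolarities had a median of 0.0995 on the log2 scale, which limits what could be called in genes with few reads.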

Other observations

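Genes of the pathway list under the filter on low counts were not tested, and several of them had reads mainly at 500 mOsm. Wnk2, a relative of Wnk1 known from neurons, had 0 reads in each iso-osmolar library, 9, 6 and 7 at 500 mOsm and 1, 2 and 3 at 600 mOsm. Klhl3, the relative of Klhl2 that acts in the kidney, had 0, 3 and 1 reads, then 13, 3 and 7, then 1, 2 and 2. Slc9a3, the exchanger of kidney and gut, had its highest counts in control medium instead, at 7, 9 and 12 reads, against 2, 8 and 3 at 500 mOsm and 2, 5 and 5 at 600 mOsm. Slc12a3 had 0, 0 and 1 reads in control medium, 4, 2 and 1 at 500 mOsm and 3, 4 and 11 at 600 mOsm, and the last 2 groups overlapped. These genes were picked after their counts were seen. Chp2, Atp1b2, Fxyd2 and Fxyd3 had 0 reads in all 9 libraries.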
